A study of Homo sapiens with 4 samples.

Results

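The 54 genes described here are mitotic genes that peak in G2 and M, on a published list by which single cells are often assigned to that phase. They were taken from the deposited table by gene symbol, with no threshold on a measured value but with earlier results of these data known, and are 54 of its 46427 genes. All 54 had enough counts to be tested, with 1381 to 50213 counts per library. The RNA was that of SNU638, a human gastric cancer line of epithelial origin in long use, and a stranded kit was used on poly(A) RNA. Control cells carried the control vector and YTHDF1 cells carried a vector for YTHDF1, a protein that binds m6A, a methyl mark on messenger RNA. Each group held 2 biological replicates. Every culture, control or YTHDF1, was kept without serum for 24 h and then given IFN‐γ at 10 ng/ml, for 8 h by the labels and for longer by the paper. The design therefore holds no untreated cells, a single cell line and an overexpressed gene.

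The comparison asks whether the mitotic genes differed in level between YTHDF1‐overexpressed and control cells. Total counts ran from 57398137 to 60864942 per library. YTHDF1 itself drew 0.00834% and 0.00794% of the counts of the control libraries (replicate 1, then 2) against 1.66% and 0.261% of those of the YTHDF1 libraries, so its messenger RNA was high in both libraries labelled YTHDF1 but at unequal levels. The epithelial markers EPCAM, CDH1, KRT8, KRT18 and KRT19 were present in every library and summed to between 3847.5 and 6730.58 CPM (counts scaled to library size), with the replicates numbered 2 above those numbered 1. That direction was set by the keratins, since EPCAM and CDH1 were lower in replicate 2 (log2 fold changes of −0.18 and −0.58). The 8 markers of blood, fibroblast and endothelial cells summed to between 6.21 and 11.8 CPM, almost all of it COL1A1, and COL1A2 was at 0 in all 4 libraries. Libraries with 1 number in common resembled each other more than libraries with the same vector. Over the 54 genes, which are not independent replicates, Pearson's r of log2 CPM was 0.998 within replicate number 1 and 0.999 within number 2, against 0.984 between the control libraries and 0.985 between the YTHDF1 libraries. The labels give the replicate numbers no further meaning, so each member is given over all 4 libraries and also within each number.

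Cells enter mitosis when CDK1 binds a B-type cyclin and is activated by CDC25 phosphatases. Many genes for the spindle, the kinetochores and the condensed chromosomes are transcribed together late in the cycle. The anaphase-promoting complex then marks cyclin B for destruction as cells leave mitosis. In resting cells many of these genes are held down by the DREAM complex, which reads a short promoter element called the CHR, often close to CCAAT boxes bound by NF-Y, and in cycling cells B-MYB and FOXM1 act through the same element.

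The promoters below were chosen to show CHR and CCAAT letters side by side, with a promoter that lacks the CHR letters for contrast. CCNB2, CKS1B and CKS2 are partners of CDK1, KIF11 and HMMR are the genes of the kinesins and of the spindle group with the highest vector difference, and NEK2 is shown as a member with CCAAT boxes but no CHR letters. Each is the 150 bases before the start listed for the gene by RefSeq, on GRCh38.p14 and on the gene's own strand. They lie at chr15:59104996-59105145 (plus strand) for CCNB2, chr1:154974531-154974680 (plus) for CKS1B, chr9:89311045-89311194 (plus) for CKS2, chr10:92592980-92593129 (plus) for KIF11, chr5:163460482-163460631 (plus) for HMMR and chr1:211675622-211675771 (minus) for NEK2. All of them lie outside the gene, directly before its first base. Capitals mark the letters of the CHR (TTTGAA, or TTCAAA where it reads on the other strand) and of the CCAAT box (CCAAT, or ATTGG on the other strand).
CCNB2: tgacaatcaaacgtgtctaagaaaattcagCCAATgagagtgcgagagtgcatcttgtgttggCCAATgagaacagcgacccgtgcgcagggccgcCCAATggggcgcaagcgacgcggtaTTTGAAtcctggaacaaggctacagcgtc
CKS1B: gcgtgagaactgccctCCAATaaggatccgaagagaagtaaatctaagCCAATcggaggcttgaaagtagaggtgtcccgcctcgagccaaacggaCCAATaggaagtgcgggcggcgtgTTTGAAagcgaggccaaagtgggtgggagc
CKS2: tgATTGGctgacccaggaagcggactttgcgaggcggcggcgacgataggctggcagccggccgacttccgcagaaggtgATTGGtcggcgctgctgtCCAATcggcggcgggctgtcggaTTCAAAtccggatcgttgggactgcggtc
KIF11: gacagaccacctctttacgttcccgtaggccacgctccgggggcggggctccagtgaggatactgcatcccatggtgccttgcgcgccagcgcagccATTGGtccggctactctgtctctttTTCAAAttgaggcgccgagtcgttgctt
HMMR: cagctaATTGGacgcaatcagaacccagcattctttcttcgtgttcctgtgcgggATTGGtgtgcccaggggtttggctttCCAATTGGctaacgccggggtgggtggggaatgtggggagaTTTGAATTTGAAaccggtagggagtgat
NEK2: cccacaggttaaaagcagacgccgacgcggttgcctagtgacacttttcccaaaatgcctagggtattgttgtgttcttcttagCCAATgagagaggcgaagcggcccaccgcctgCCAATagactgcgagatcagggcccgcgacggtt

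In the first 5 of these promoters the CHR letters began between 30 and 22 bases before the start, and the nearest CCAAT letters lay just upstream of them. In CCNB2 the CHR began at −29 and the CCAAT boxes of the stretch at −120, −87 and −54, counted from the start. CKS1B had the CHR at −30 and a CCAAT box at −54, and CKS2 had them at −29 and −52. HMMR had the CHR letters side by side at −28 and −22, and NEK2 had only CCAAT boxes, at −66 and −34.

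Promoters were listed for 45 of the 54 members and were searched from 250 bases before the start to 50 bases after it, on both strands, with the first listed start of each gene. ANP32E, AURKA, BIRC5, CDCA2, HMGB2, PIMREG, TPX2, TTK and UBE2C had no entry. The CHR letters (TTTGAA or TTCGAA) were present in 33 of the 45 promoters, or 73.3%, against 16.6% of all 27305 promoters in the table and 11.7% of those of the tested genes. From 50 bases before the start to 50 after it, the CHR letters were in 23 members, or 51.1%, against 5.05% of all promoters. CCAAT was present in 31 members (68.9%, against 35.7% of all promoters), and 23 members held at least 2 CCAAT matches (51.1%, against 11.3%). Both motifs stood together in 27 members, or 60%, against 6.58% of all promoters. A separate motif read by E2F proteins (TTCGCGC or TTGGCGC) was present in 6 members, or 13.3%. It was in 5.18% of all promoters and 8.19% of those of the tested genes. The positions varied. In 12 of the 33 members with CHR letters a CHR began between 40 and 15 bases before the start, as in the printed promoters. These were ANLN, CCNB2, CDCA8, CENPA, CKAP2L, CKS1B, CKS2, GTSE1, HMMR, KIF11, MKI67 and PSRC1. In the others the CHR lay elsewhere. It was further upstream in some, as at −161 in CDK1 and −111 in HJURP, and after the start in others, as at 4 in G2E3 and 17 in NUF2. ANLN had no CCAAT letters, and in GTSE1 they lay between the CHR and the start. CHR and CCAAT letters can share a base, as in CDCA8 and MKI67, and CCAAT matches on opposite strands can overlap, as in HMMR. In AURKB, CKAP2 and GAS2L3 the start used lay inside the gene's RefSeq span, and none of these genes had CHR letters in the window. A match describes the letters only.

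**Figure D1:**
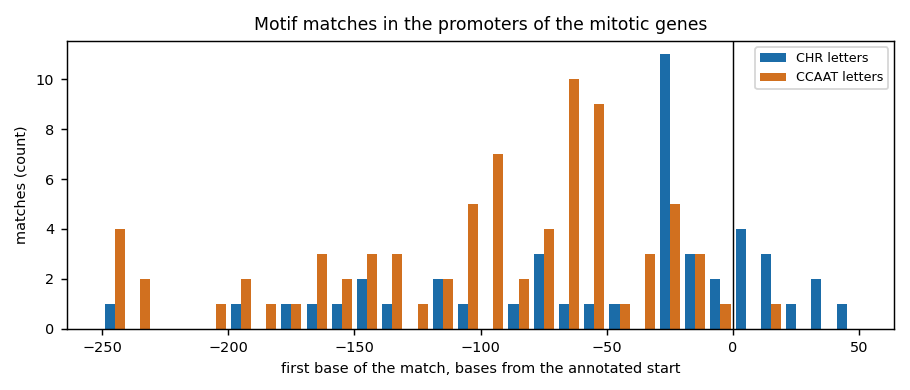
Number of matches to the CHR letters (blue) and the CCAAT letters (orange) in the promoters of the 45 members with a listed start, by the position of the first base of the match in bases from the start (vertical line), in bins of 10 bases. The tallest group of CHR matches lies just before the start. Of the 33 members with CHR letters, 12 have one between 40 and 15 bases upstream. The other CHR matches lie at and after the start or further upstream.

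The members spanned a wide range of levels. As a mean over the libraries, CPM per kb of exon length, a scale that allows genes to be compared, was highest for TUBB4B, a beta tubulin, at 286.6 and 349.9 in control (replicate 1, then 2, here and throughout) and 293.7 and 357.0 in YTHDF1. CKS2 (195.5, 196.4, 196.7 and 205.6, in the same order) and HMGB2, a chromatin protein (172.5, 158.9, 172.9 and 164.9), came next, and were above TOP2A, the topoisomerase that untangles sister chromatids (92.5, 142.7, 95.1 and 144.4). The libraries of TUBB4B, CKS2 and HMGB2 did not overlap with one another. G2E3, a ubiquitin ligase, was the lowest, at 7.25, 6.87, 7.67 and 6.87 CPM per kb. CDCA3 (7.42, 8.51, 7.49 and 8.80) and CKAP2L (8.09, 8.00, 8.88 and 8.14) stood just above G2E3, and the libraries of CDCA3 overlapped with those of both. On the CPM scale, without length, the mean of a member ran from 27.4 to 683.

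Over all 4 libraries, 49 of the 54 mitotic genes were higher in YTHDF1‐overexpressed than in control cells by value (48 with total counts, or with library sizes that leave YTHDF1 out), against 52.2% of all 17781 genes tested, and the differences were small. Without control replicate 1 or without YTHDF1 replicate 2, which leaves the replicate numbers unbalanced, 29 were higher, a share near the 52.5% and 49.8% of all genes higher at these settings. The median log2 fold change of the members was 0.043 and that of all genes tested 0.0046. The members ran from −0.039 (TACC3, 0.973-fold) to 0.15 (AURKB, 1.11-fold). By edgeR's quasi-likelihood test, 0 members passed an unadjusted p under 0.05, as did 0.135% of all genes, and 0 passed an adjusted p under 0.05, as did 0% of all genes. The unadjusted p of the members ran from 0.166 to 0.989, and each adjusted p was 1.00. The count was also 0 at both thresholds with DESeq2's Wald test and with limma-voom. These rules called none of the members, but they called hardly any gene, so 0 calls do not show that the members were unchanged. With the replicate number as a block, 3 members passed an unadjusted p under 0.05 by edgeR's quasi-likelihood test, all of them higher. Of all genes, 1.91% were then called higher and 1.88% lower. In bulk RNA, a different share of cells in G2 and M and a different amount of each message per cell cannot be told apart.

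The members' counts summed to 0.813% of all counts in control replicate 1 and 0.830% in YTHDF1 replicate 1, and to 0.891% in control replicate 2 and 0.914% in YTHDF1 replicate 2. The YTHDF1 library was thus above the control library of its own number in each case, and both libraries numbered 2 were above both numbered 1. In 12 members both YTHDF1 libraries were above both control libraries, against 5.67% of all genes tested, and in 0 members were they both below, against 5.83%. The 12 were CKS2, TTK, AURKA, AURKB, KIF23, CKAP2L, HMMR, PSRC1, NCAPD2, CDCA2, ANP32E and UBE2C, which make up 22.2% of the members. Without YTHDF1 in the library size the count was 9. With 1 library left out, a lone library stands apart more easily for any gene. YTHDF1 was then above control in 19 members without control replicate 1 (35.2%, against 27.1% of all genes), in 35 without control replicate 2 (64.8%, against 27.2%), in 36 without YTHDF1 replicate 1 (66.7%, against 27.4%) and in 17 without YTHDF1 replicate 2 (31.5%, against 29.2%).

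Within replicate number 1, 45 members were higher in the YTHDF1 library, against 52.4% of all genes tested, with a median difference of 0.056 in log2 CPM against 0.0086. Within number 2, 43 were higher, against 49% of all genes, with a median of 0.043 against 0. In both numbers alike, 35 members were higher, or 64.8%, against 25.9% of all genes. SMC4 was the 1 member lower in both, against 23.3% of all genes. Scaling by total counts, which gives YTHDF1's own reads full weight, left 30 members higher in both. These differences compare 1 library with 1 library, so they carry no test. Their 95% counting intervals (exact binomial; they take in no more than counting error, because no molecular identifiers were used and reads can be copies) were above 0 in number 1 for 30 members (19.2% of all genes) and below 0 for 3 (15.1%), and in number 2 above 0 for 25 (12.5%) and below 0 for 2 (11.8%). In both numbers the interval was above 0 for 16 members, against 3.28% of all genes, and below 0 for 0, against 2.13%. The 16 were CDK1, TTK, AURKB, CDCA8, KIF11, KIF2C, KIF23, HJURP, HMMR, TUBB4B, JPT1, ANLN, ECT2, NCAPD2, ANP32E and TMPO.

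The members are well expressed, and counting intervals are narrower for such genes. Among the 6998 genes with a mean CPM at or above that of the lowest member, a background chosen after seeing the data, 59.8% were higher over the 4 libraries, 30.7% were higher in both numbers, 5.69% had both YTHDF1 libraries above both control libraries, and 6.44% had counting intervals above 0 in both numbers. The median of these genes was 0.012 over the 4 libraries, 0.021 within number 1 and 0.0037 within number 2. The members' counts stood above these shares as well. This background shares only a lowest level with the members and is not matched to their levels, so counting intervals may still be narrower for the members. The members are not independent of one another, so these counts are no test.

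**Figure D2:**
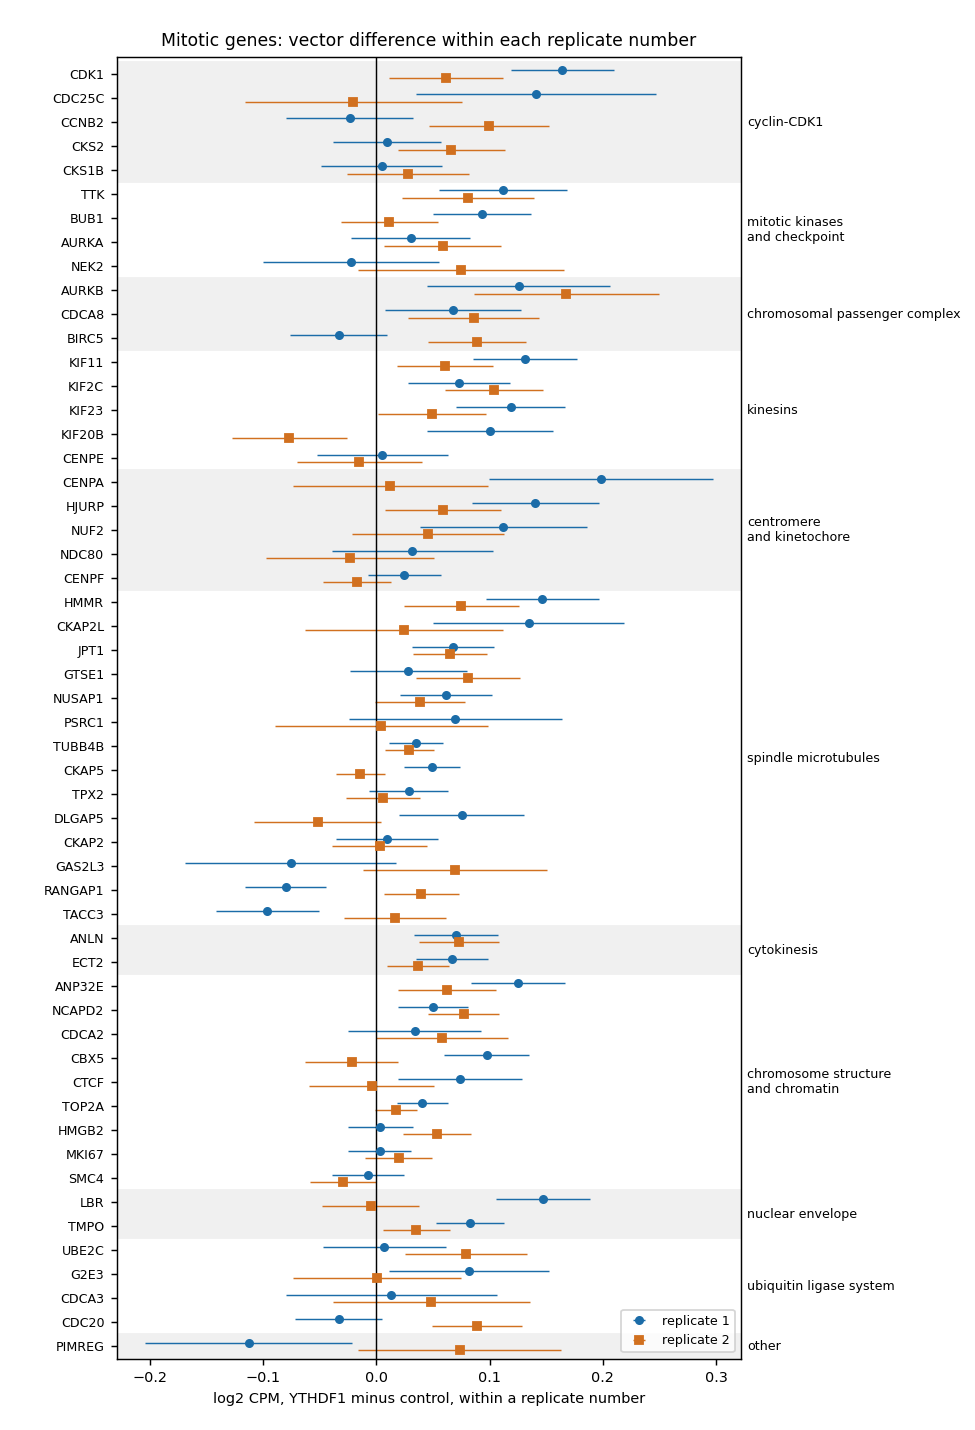
Difference in log2 CPM between the YTHDF1 and the control library within replicate number 1 (blue circles) and number 2 (orange squares) for each of the 54 members, grouped by role, with 95% counting intervals as bars. Most points lie right of 0 in both numbers (35 members), all differences lie between −0.11 and 0.20, and SMC4 is the 1 member left of 0 in both.

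Among the 5 genes of the CDK1 switch, all were higher over the 4 libraries by value, and CDK1, CKS1B and CKS2 were higher in both numbers. CDK1 (NCBI Gene ID 983), the mitotic kinase itself, had 122 and 107 CPM in control and 137 and 112 CPM in YTHDF1. Each YTHDF1 library was above the control of its number, but YTHDF1 replicate 2 was below control replicate 1, so the groups overlapped. The log2 fold change of CDK1 was 0.12 (standard error 0.15, unadjusted p = 0.479), and the difference was 0.16 within number 1 and 0.061 within number 2. CKS1B (1163), a small subunit that binds CDKs, had 96.1 and 93.9 CPM in control and 96.4 and 95.8 CPM in YTHDF1, the lowest fold change of the group at 0.016 (standard error 0.07, unadjusted p = 0.838). Its groups overlapped, and 7 CKS1B pseudogenes held a further 14.1% of its count, so reads could have been split between them. CCNB2, a B-type cyclin, was lower in number 1 by −0.024 and higher in number 2 by 0.10. CDC25C, the phosphatase that removes the inhibitory phosphates of CDK1, differed by 0.14 and −0.020. CDC25C overlaps FAM53C, whose counts equalled 308% of its own, so its values are uncertain here and in the replicate comparison if the counting ignored strand.

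The kinases of the spindle checkpoint and the centrosome, TTK, BUB1, AURKA and NEK2, were each higher over the 4 libraries by value. TTK (7272), which starts checkpoint signalling at unattached kinetochores, had 81.8 and 79.1 CPM in control and 88.4 and 83.7 CPM in YTHDF1. Both YTHDF1 libraries stood above both control libraries. The log2 fold change of TTK was 0.097 (standard error 0.08, unadjusted p = 0.300). NEK2 (4751), a kinase that helps centrosomes to separate, had 45.9 and 32.6 CPM in control and 45.2 and 34.4 CPM in YTHDF1. Its libraries followed the replicate number and not the vector, and its log2 fold change was 0.019 (standard error 0.25, unadjusted p = 0.944), from −0.022 within number 1 and 0.075 within number 2.

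The chromosomal passenger complex holds AURKB, the kinase that corrects faulty attachments, with its partners survivin (BIRC5) and borealin (CDCA8). AURKB (9212; 17:8204731-8210575 on GRCh38.p14) had 40.6 and 39.4 CPM in control and 44.2 and 44.2 CPM in YTHDF1. The groups did not overlap, and the YTHDF1 libraries were nearly equal. YTHDF1 itself was at unequal levels in these libraries, and whether AURKB follows its level was not tested. The log2 fold change of AURKB was 0.15 (standard error 0.08, unadjusted p = 0.166), the highest value and the lowest p of the 54 members, with 0.13 within number 1 and 0.17 within number 2. CDCA8 was higher by 0.068 and 0.086 within the numbers. BIRC5 (332) had 150 and 144 CPM in control and 147 and 153 CPM in YTHDF1, and its groups overlapped. Its log2 fold change was 0.028 (standard error 0.08, unadjusted p = 0.754), from −0.033 within number 1 and 0.089 within number 2.

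Of the 5 kinesins, motor proteins that move along or shorten microtubules, KIF11, KIF2C and KIF23 were higher in both numbers. KIF11 (3832), which pushes the spindle poles apart, had 123 and 149 CPM in control and 135 and 156 CPM in YTHDF1, so the YTHDF1 library was higher in each number while the groups overlapped. The log2 fold change of KIF11 was 0.093 (standard error 0.15, unadjusted p = 0.573). CENPE (1062), which carries chromosomes to the spindle equator, had 82.3 and 90.4 CPM in control and 82.6 and 89.5 CPM in YTHDF1. Here the vectors were almost level, with a log2 fold change of −0.0052 (standard error 0.10, unadjusted p = 0.961) and differences of 0.0054 and −0.015 within the numbers. KIF20B, which works in cytokinesis, turned from 0.10 within number 1 to −0.077 within number 2, with a counting interval on its own side of 0 in each.

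The centromere and kinetochore genes build the site where microtubules attach, and all 5 were higher over the 4 libraries by value, CENPF by so little that its sign turned with the scaling. HJURP (55355), the chaperone that places the centromeric histone CENPA, had 83.1 and 103 CPM in control and 91.6 and 108 CPM in YTHDF1. Each YTHDF1 library was above the control of its number, and the groups overlapped. Its log2 fold change was 0.096 (standard error 0.16, unadjusted p = 0.588). CENPA had the largest difference of any member within number 1, at 0.20, against 0.012 within number 2. NUF2 was higher in both numbers, and NDC80, its partner in the microtubule-binding complex, differed by 0.032 and −0.024. CENPF (1063), a large kinetochore protein, had 258 and 308 CPM in control and 262 and 305 CPM in YTHDF1, the lowest fold change of the group at 0.0023 (standard error 0.15, unadjusted p = 0.989). The sign of CENPF depended on the scaling, since it was −0.0010 with total counts and −0.0011 with library sizes that leave YTHDF1 out.

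The spindle and microtubule genes were the largest group, with 14 members. Of these, 9 were higher in both numbers, namely TPX2, CKAP2, CKAP2L, NUSAP1, HMMR, PSRC1, GTSE1, TUBB4B and JPT1, and 0 were lower in both. HMMR (3161), which binds hyaluronan outside the cell and the spindle within it, had 104 and 104 CPM in control and 115 and 110 CPM in YTHDF1. The groups did not overlap, and the log2 fold change of HMMR was 0.11 (standard error 0.08, unadjusted p = 0.230), with 0.15 and 0.075 within the numbers. TACC3 (10460), which bundles the fibres that hold kinetochores together with CKAP5, had 137 and 136 CPM in control and 128 and 137 CPM in YTHDF1. YTHDF1 replicate 1 alone was low, and the log2 fold change of TACC3 was −0.039 (standard error 0.08, unadjusted p = 0.667), the lowest of the members, from −0.096 within number 1 and 0.017 within number 2. TACC3 overlaps TMEM129, which held counts equal to 24.3% of those of TACC3, and the strand setting of the counting is not given in the sources used here. CKAP5, a microtubule polymerase, differed by 0.049 and −0.014 within the numbers. DLGAP5, which stabilises spindle microtubules, differed by 0.075 and −0.052. GAS2L3 differed by −0.076 and 0.069. RANGAP1, which acts on the Ran GTPase, differed by −0.080 and 0.040, and overlaps ZC3H7B, whose counts equalled 82.3% of its own.

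Both genes of the cytokinesis group were higher in both numbers. ANLN (54443), a scaffold of the contractile ring, had 195 and 212 CPM in control and 204 and 223 CPM in YTHDF1. The difference was nearly the same in both numbers, at 0.070 and 0.073, but the replicate numbers lay further apart, so the groups overlapped and the log2 fold change of 0.072 had a standard error of 0.10 (unadjusted p = 0.521). ECT2 (1894), the exchange factor that switches on RhoA at the cleavage furrow, had 261 and 369 CPM in control and 273 and 378 CPM in YTHDF1. Its log2 fold change was 0.049 (standard error 0.27, unadjusted p = 0.863), a small vector difference beside a wide gap between the numbers.

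Of the 9 genes of chromosome structure and chromatin, TOP2A, NCAPD2, MKI67, HMGB2, CDCA2 and ANP32E were higher in both numbers. ANP32E (81611), a chaperone that removes the histone H2A.Z, had 151 and 146 CPM in control and 165 and 153 CPM in YTHDF1. The groups did not overlap, and the log2 fold change of ANP32E was 0.095 (standard error 0.09, unadjusted p = 0.350). SMC4 (10051), a core subunit of condensin, had 275 and 334 CPM in control and 274 and 327 CPM in YTHDF1. Its groups overlapped, its log2 fold change was −0.019 (standard error 0.16, unadjusted p = 0.911), and its differences within the numbers were −0.0074 and −0.029. NCAPD2, another condensin subunit, had 275 and 275 CPM in control and 285 and 290 CPM in YTHDF1, with groups that did not overlap, so the condensin subunits SMC4 and NCAPD2 differed in sign; the difference between them was not tested. CBX5, a heterochromatin protein, differed by 0.097 and −0.022 within the numbers, and CTCF, which shapes chromatin loops, by 0.074 and −0.0041.

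The nuclear envelope genes were LBR, the lamin B receptor, and TMPO, a protein of the inner nuclear membrane. LBR (3930) had 150 and 149 CPM in control and 166 and 148 CPM in YTHDF1, so YTHDF1 replicate 1 stood above the other libraries. The log2 fold change of LBR was 0.073 (standard error 0.10, unadjusted p = 0.495), from 0.15 within number 1 and −0.0050 within number 2. TMPO (7112) had 291 and 314 CPM in control and 308 and 322 CPM in YTHDF1, and was higher in each number. Its log2 fold change was 0.058 (standard error 0.09, unadjusted p = 0.572).

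Among the genes of the ubiquitin ligase system, UBE2C, G2E3 and CDCA3 were higher in both numbers. UBE2C (11065), the conjugating enzyme of the anaphase-promoting complex, had 92.3 and 91.9 CPM in control and 92.7 and 97.1 CPM in YTHDF1. The groups did not overlap, though YTHDF1 replicate 1 was only just above control, and the log2 fold change of UBE2C was 0.043 (standard error 0.08, unadjusted p = 0.604). CDC20 (991), an activator of the same complex, had 186 and 170 CPM in control and 182 and 180 CPM in YTHDF1, and the YTHDF1 libraries lay between the control libraries. Its log2 fold change was 0.026 (standard error 0.09, unadjusted p = 0.788), from −0.033 and 0.089 within the numbers. PIMREG (54478), placed in no role, had 34.3 and 33.7 CPM in control and 31.7 and 35.5 CPM in YTHDF1. Its groups overlapped, and its log2 fold change was −0.017 (standard error 0.11, unadjusted p = 0.887), from −0.11 and 0.074. PIMREG overlaps PITPNM3, whose counts equalled 18.2% of its own.

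**Figure D3:**
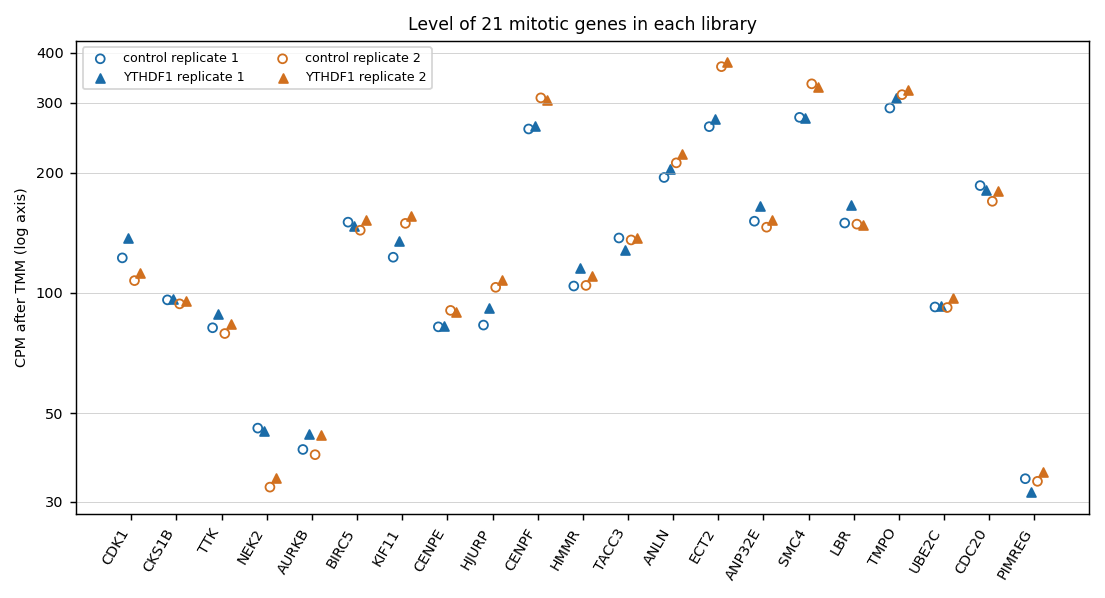
CPM after TMM scaling, on a log axis, in each of the 4 libraries for the 21 members with the highest or lowest vector fold change of their role (open circles control, triangles YTHDF1, blue replicate 1, orange replicate 2). For AURKB, TTK and HMMR both triangles lie above both circles, whereas for ECT2, NEK2 and CENPF the colours lie further apart than the symbols.

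The members that were split between the numbers fell into unequal patterns. CDC25C, KIF20B, CENPE, CENPF, NDC80, CKAP5, DLGAP5, CBX5, CTCF and LBR, 10 in all, were higher within number 1 and lower within number 2. CCNB2, NEK2, BIRC5, TACC3, GAS2L3, RANGAP1, CDC20 and PIMREG, 8 in all, were lower within number 1 and higher within number 2. By promoter, 32 of the 33 members with CHR letters were higher over the 4 libraries and 24 were higher in both numbers, and of the 12 searched members without them 9 were higher and 4 were higher in both. All 31 members with CCAAT letters were higher over the 4 libraries, although CENPF among them turned lower under the total-count scaling, and 10 of the 14 without CCAAT letters were higher. The medians were 0.043 with and 0.031 without the CHR letters, and 0.049 with and 0.021 without CCAAT letters. The sets depend on the first listed start of each gene and on the CHR letters searched (TTTGAA or TTCGAA), and other forms were not searched. In AURKB, CKAP2 and GAS2L3, all counted as without CHR letters, that start lay inside the gene. These are descriptions of overlapping sets, with no test.

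In most members, as in most of all genes tested, the gap between the replicate numbers was wider than that between the vectors. In 40 of the 54 members the difference between the replicate numbers was larger in size than that between the vectors, against 83.5% of all genes tested. With the vector in the model, edgeR's quasi-likelihood test called 23 members (42.6%) higher in replicate 2 at an adjusted p under 0.05, against 23% of all genes. It called 4 members (7.41%) lower, against 28.7% of all genes. Among genes at or above the level of the lowest member, these backgrounds were 31.5% and 29.5%. The test treats libraries with the same number as independent samples of it, and the labels do not say what they share. Its p-values, here and below, therefore describe the spread among these libraries only. The median log2 fold change of the members was 0.072, and that of all genes was −0.012. Asking also for a log2 fold change of at least 0.5 left TOP2A alone in the higher direction (9.71% of all genes) and 0 members in the lower one (16% of all genes).

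TOP2A (7153; 17:40388525-40417896 on GRCh38.p14) had 532 and 822 CPM in control replicates 1 and 2, and 548 and 832 CPM with YTHDF1. Its libraries separated by number, 1.53-fold (log2 fold change 0.61, standard error 0.04), with an adjusted p of 1.35e-06 in the quasi-likelihood test of edgeR. ECT2 rose by 0.48 in replicate 2 (standard error 0.04, adjusted p = 8.43e-06, same test). GAS2L3 had 32.4 and 30.7 CPM in the replicates numbered 1 and 41.4 and 43.5 CPM in those numbered 2, a log2 fold change of 0.43 (adjusted p = 0.000341, same test). CKAP5 had 430 and 445 CPM against 584 and 579 CPM (0.41, adjusted p = 2.91e-05, same test). CENPA had 26.4 and 30.3 CPM against 37.1 and 37.4 CPM (0.40, adjusted p = 0.000899, same test). In each of these genes both libraries numbered 2 stood above both numbered 1, whatever the vector.

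The other called members higher in replicate 2 were CCNB2, CDC25C, KIF11, KIF20B, KIF2C, CENPE, HJURP, CENPF, NUF2, TPX2, CKAP2, GTSE1, TUBB4B, JPT1, RANGAP1, ANLN, SMC4 and CDCA3. By role, against 23% of all genes, those called higher in replicate 2 were 2 of 5 genes of the CDK1 switch, 0 of 4 mitotic kinases, 0 of 3 passenger complex genes, 4 of 5 kinesins, 4 of 5 centromere and kinetochore genes, 8 of 14 spindle genes, 2 of 2 cytokinesis genes, 2 of 9 chromatin genes, 0 of 2 nuclear envelope genes and 1 of 4 ubiquitin ligase genes. The members lower in replicate 2 were NEK2, CBX5, CDK1 and MKI67, the last of them the antigen by which proliferating cells are stained. NEK2 fell by 0.44 on the log2 scale (adjusted p = 0.000185, edgeR's quasi-likelihood test), CBX5 fell by 0.26 (adjusted p = 0.00118, same test) and CDK1 fell by 0.24 (adjusted p = 0.00207, same test). MKI67 had 350 and 350 CPM in the replicates numbered 1 and 317 and 321 CPM in those numbered 2, and fell by 0.13 (adjusted p = 0.0210, same test). Between the numbers CDK1 thus fell while CCNB2 and CDC25C, of the same role, rose.

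**Figure D4:**
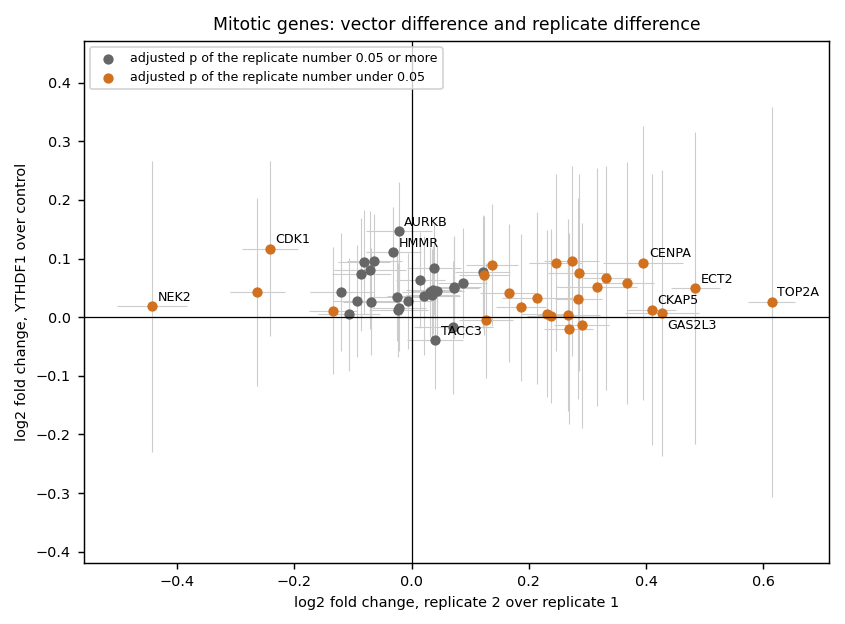
Log2 fold change of YTHDF1 over control (vertical axis) against that of replicate 2 over replicate 1 (horizontal axis) for the 54 members, with standard errors as bars and equal scales on both axes. Orange points passed an adjusted p under 0.05 for the replicate number; the vector values stay between −0.039 and 0.15, while the replicate values run from −0.44 (NEK2) to 0.61 (TOP2A).

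The same counts were made over other genes of the pathway, on lists taken from general knowledge. Of 73 other mitotic genes, 56 were higher with YTHDF1 over the 4 libraries by value, with a median log2 fold change of 0.038, 35 were higher in both numbers and 3 were lower in both. CCNB1, the main B-type cyclin, had 249.8 and 287.8 CPM in control and 263.6 and 307.7 CPM in YTHDF1, and PLK1, a kinase of mitotic entry, had 95.0 and 71.7 CPM against 88.9 and 74.3 CPM; the pair was chosen after the values were seen. CCNB1 was above its control in each number, and PLK1 in number 2 alone. Of 23 regulators of mitotic transcription, 16 were higher (median 0.018) and 7 were higher in both numbers. Among them FOXM1 had 145 and 181 CPM in control and 141 and 184 CPM in YTHDF1, and MYBL2, which encodes B-MYB, had 63.2 and 48.0 CPM against 62.7 and 47.9 CPM, also named after their values were seen. Neither regulator differed between the vectors by as much as between the replicate numbers. Of 15 CDK inhibitors, G1 cyclins and their kinases, 9 were higher (median 0.023) and 5 were higher in both numbers. Of 15 core subunits of the anaphase-promoting complex, 10 were higher (median 0.0063) and 5 were higher in both. Of all genes tested, 52.2% were higher over the 4 libraries, 25.9% were higher in both numbers and 23.3% were lower in both. In each of these 4 lists 0 genes passed an unadjusted p under 0.05 in the vector comparison by edgeR's quasi-likelihood test. That rule called 0.135% of all genes, so 0 calls do not show that the listed genes were unchanged. In the replicate number comparison at an adjusted p under 0.05, where 23% of all genes were higher and 28.7% lower, the other mitotic genes had 38 higher and 11 lower, the regulators 3 and 10, the CDK inhibitors and G1 genes 5 and 6, and the anaphase-promoting complex 1 and 7.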

How the data were processed

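Messenger RNA was sequenced from 2 control and 2 YTHDF1 libraries of SNU638. The authors deposited counts, whole numbers of reads per gene without normalization, for 46427 genes, of which 20072 were at 0 in all 4 libraries. The submitters' processing notes name Trimmomatic, HISAT2 and GRCh38, and the counting tool and its strand setting are not given in the sources used here. Separate cultures are implied by the label of biological replicate only, so p-values measure the spread between these libraries. Replicates differed beyond sampling noise (chi-square per degree of freedom 147 in control and 180 in YTHDF1), and each library was counted once.

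edgeR 4.0.16 under R 4.3.3 was used on the counts (filterByExpr, TMM scaling, quasi-likelihood test), with Benjamini-Hochberg adjustment over 17781 genes. The vector was tested without covariates, and the replicate number with the vector in the model. CPM are counts scaled to TMM library sizes. Within-number differences are log2 CPM with a prior count of 0.5. Alternatives were DESeq2 1.42.0 (size factors, Wald test), limma 3.58.1 (voom), total counts, YTHDF1 left out of the library size, other filters, a prior count of 2, the replicate number as a block and each library left out. Scripts were tested on simulated data. Recovery by the vector test without covariates was required only where no difference between replicate numbers was simulated. Exon lengths came from GENCODE v29 and promoters and loci from RefSeq (GRCh38.p14). Figures used Python 3.11.15 and matplotlib 3.10.9.

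The members and lists were chosen with earlier results of these data known. All members were named in 11 roles, with full values for the highest and lowest vector fold change of each role, both differences for members not higher in both numbers, and up to 5 called members in each direction of the replicate comparison. Of the members, 28 overlap another RefSeq gene. Protein sequences were not analysed here.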

Additional observations from a re-analysis of the deposited data

How the results depend on the processing

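The 54 members gave 0 calls for the vector under every scaling, filter and test tried, except in the fit with a replicate block. That fit called 3 members, all higher, at an unadjusted p under 0.05, namely CDK1, AURKB and HMMR (1.91% of all genes were called higher and 1.88% lower), and 0 at an adjusted p. Same-numbered libraries deviated together from their group means (r = 0.875), but there are only 2 such pairs and the labels give the numbers no meaning, so the block is no more than an alternative. Members higher with YTHDF1 numbered 48 or 49 under the other scalings, tests and filters and the block. CENPF turned to −0.0010 with total counts and to −0.0011 with library sizes that leave YTHDF1 out.

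With 1 library omitted, 1 vector no longer holds both numbers, so the difference between numbers enters the value, and the lone library was taken to vary like the other group. Members higher then ran from 29 (without control replicate 1 or without YTHDF1 replicate 2, where 52.5% and 49.8% of all genes were higher) to 45. The median ran from 0.0029 (without YTHDF1 replicate 2) to 0.099 (without control replicate 2), and without control replicate 1 it was 0.0096, below the 0.014 of all genes. Members with YTHDF1 above control in every library left ran from 17 to 36, against 27.1% to 29.2% of all genes. The log2 fold change changed sign for some of the members given in full, and its range over the 4 omissions was −0.041 to 0.24 for KIF11, −0.052 to 0.26 for HJURP, −0.12 to 0.14 for CENPF, −0.21 to 0.32 for ECT2, −0.0015 to 0.033 for CKS1B, −0.21 to 0.29 for NEK2, −0.0070 to 0.062 for BIRC5, −0.072 to 0.064 for CENPE, −0.16 to 0.13 for SMC4, −0.039 to 0.093 for CDC20, −0.035 to 0.25 for CDK1, −0.0083 to 0.15 for LBR, −0.11 to 0.064 for PIMREG and −0.095 to 0.010 for TACC3. For the replicate number, members called higher ran from 20 to 24 and lower from 3 to 6 over the other settings, and with 1 library left out no test could be fitted, since no residual degree of freedom is left. Counting error is small beside the spread between libraries for members with a wide gap between the numbers, such as TOP2A. It is not for others, such as CKS1B. The control libraries of CKS1B differed by −0.033, and its counting interval within number 1 ran from −0.049 to 0.058. The 2 libraries a group limit every vector comparison.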
